A study of Mus musculus with 19 samples.

Results

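Cadherins and regulators of the epithelial-mesenchymal transition (EMT) were followed as a set of 9 genes, Cdh1, Cdh2, Epcam, Vim, Snai1, Snai2, Zeb1, Zeb2 and Esrp1, chosen by name and found among 54119 annotated mouse genes. RNA was sequenced in 19 libraries of mouse embryonic stem cells (mESC) and of EpiLC (epiblast-like cells), which model the epiblast soon after implantation. The study asked, per its design text, whether the DNA demethylase TET3 is needed for the passage from mESC to EpiLC. The groups were wild-type XX cells of the LF2 line (3 mESC and 3 EpiLC libraries), wild-type XY cells of the E14 line (3 and 3), and XX Tet3-/- cells of the LF2 line (mutants #1 to #4 as mESC, and #1, #3 and #4 as EpiLC). All mESC had been kept with LIF and inhibitors of GSK3 and MEK1/2, and all EpiLC had received FGF5 and Activin A without LIF for 5 days. Sex and cell line changed together, so they cannot be told apart. The labels do not say whether replicates were separate cultures or whether the numbered mutants were separate clones, so p-values measure the spread between these libraries, which may be technical.

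E-cadherin (Cdh1) and N-cadherin (Cdh2) are calcium-dependent adhesion molecules that bind the same protein on a neighbouring cell, and exchange of the first for the second is the textbook sign of an EMT. The zinc-finger factors Snai1, Snai2, Zeb1 and Zeb2 bind E-box sequences and repress Cdh1 and other epithelial genes, Esrp1 directs the epithelial choice of exons, and vimentin (Vim) is the intermediate filament of mesenchymal cells. In the embryo the epiblast becomes a polarised epithelium after implantation, and cells leave that epithelium through the primitive streak.

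Values are TPM (transcripts per 1000000), a level corrected for transcript length, summed per gene and divided by a size factor per library, and are called scaled TPM. Fold changes are differences of log2(scaled TPM + 1), which understates the change of low genes, and each is given with its standard error (SE). A gene was called when limma's adjusted p was under 0.05, and 14972 genes with at least 1 TPM in at least 3 libraries were tested. Among the 9 genes, 7 were tested. Snai1 and Snai2 were not, since Snai1 reached 1 TPM in 2 libraries and Snai2 in 0. Cdh2 and Zeb2 reached it in 4 libraries each, the 3 XY EpiLC and Tet3-/- EpiLC mutant #3, so both entered the test through the libraries in which they were high. Esrp1 reached it in 10 libraries, the 9 EpiLC and XY mESC replicate 2, and so also entered through the EpiLC in which it was high. The same holds for Snai3, another Snail factor, which was at most 0.245 scaled TPM in every mESC library.

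TPM keeps no read totals, so sequencing depth cannot be given and precision was read from the spread between libraries. One non-coding RNA, Rn7s1, held between 23.5% and 43.7% of all TPM, and TPM as deposited shifted the median of all genes by 0.54 (log2) in the XY transition and by -0.59 between XX and XY EpiLC. After scaling these medians were within 0.02 of 0. Pluripotency markers (Pou5f1, Sox2 and Nanog, 3 of 3 detected) summed to between 212 and 747 scaled TPM in the 19 libraries. Pou5f1 was the largest part in each group mean, and all 3 averaged lower in EpiLC than in mESC in each genotype. Sox2 averaged 87.4, 90.1 and 104 in XX, XY and Tet3-/- mESC and 16.6, 2.02 and 7.75 in the EpiLC. The fibroblast and feeder list summed to at most 7.24, of which Thy1 made up to 5.97, and Col1a1 was at most 0.554. Tet3 itself averaged 0.927 ± 0.293 scaled TPM (SD, n = 3) in XX mESC and 0.663 ± 0.133 (n = 4) in Tet3-/- mESC, and 1.72 ± 0.286 and 1.14 ± 0.150 (n = 3 each) in the EpiLC. These differences were not called (log2 fold change -0.20 ± 0.11, limma adjusted p = 0.44, and -0.34 ± 0.12, adjusted p = 0.114). The labels do not say which part of Tet3 is deleted, so a sum over the gene's transcripts does not check the genotype. The EpiLC markers (Fgf5, Pou3f1, Otx2 and Dnmt3b) summed to 43.5 to 45.4 in XX EpiLC, 181 to 185 in XY EpiLC and 55.9 to 109 in Tet3-/- EpiLC. In XX, XY and Tet3-/- mESC they summed to 27.0 to 31.9, 9.29 to 15.3 and 23.4 to 28.7. Otx2 averaged 23.4 in XX mESC and 11.6 in XX EpiLC, while Fgf5, Pou3f1 and Dnmt3b were higher in XX EpiLC. The naive markers summed to 46.3 to 47.8, 6.01 to 6.93 and 12.5 to 20.8 in XX, XY and Tet3-/- EpiLC. The lines thus did not hold the same marker levels after 5 days. In libraries of many cells, fewer cells of a type and less RNA per cell cannot be told apart.

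In XX cells Cdh1, Epcam and Esrp1 were higher and Zeb1 lower in EpiLC than in mESC, while Cdh2, Vim and Zeb2 were not called. Of the 7 tested genes, 4 were called (3 higher, 1 lower), beside 50.4% of all tested genes (24.5% higher and 25.9% lower). In XY cells 6 of 7 were called (4 higher, 2 lower), beside 51.4% of all genes (26.4% higher and 25.0% lower), and Zeb2 was among the higher. In Tet3-/- cells 7 of 7 were called (6 higher, 1 lower), beside 52.4% (25.2% higher and 27.2% lower), of which 2, Cdh2 and Vim, were called only with mutant #3 in the fit. The 7 include Cdh2, Zeb2 and Esrp1, which passed the filter through EpiLC libraries in which they were high. The transitions of XX and Tet3-/- cells were not called different for any of the 7, where 0.661% of all genes were called and 0 of the 7 had an unadjusted p under 0.05 in limma.

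**Figure D1:**
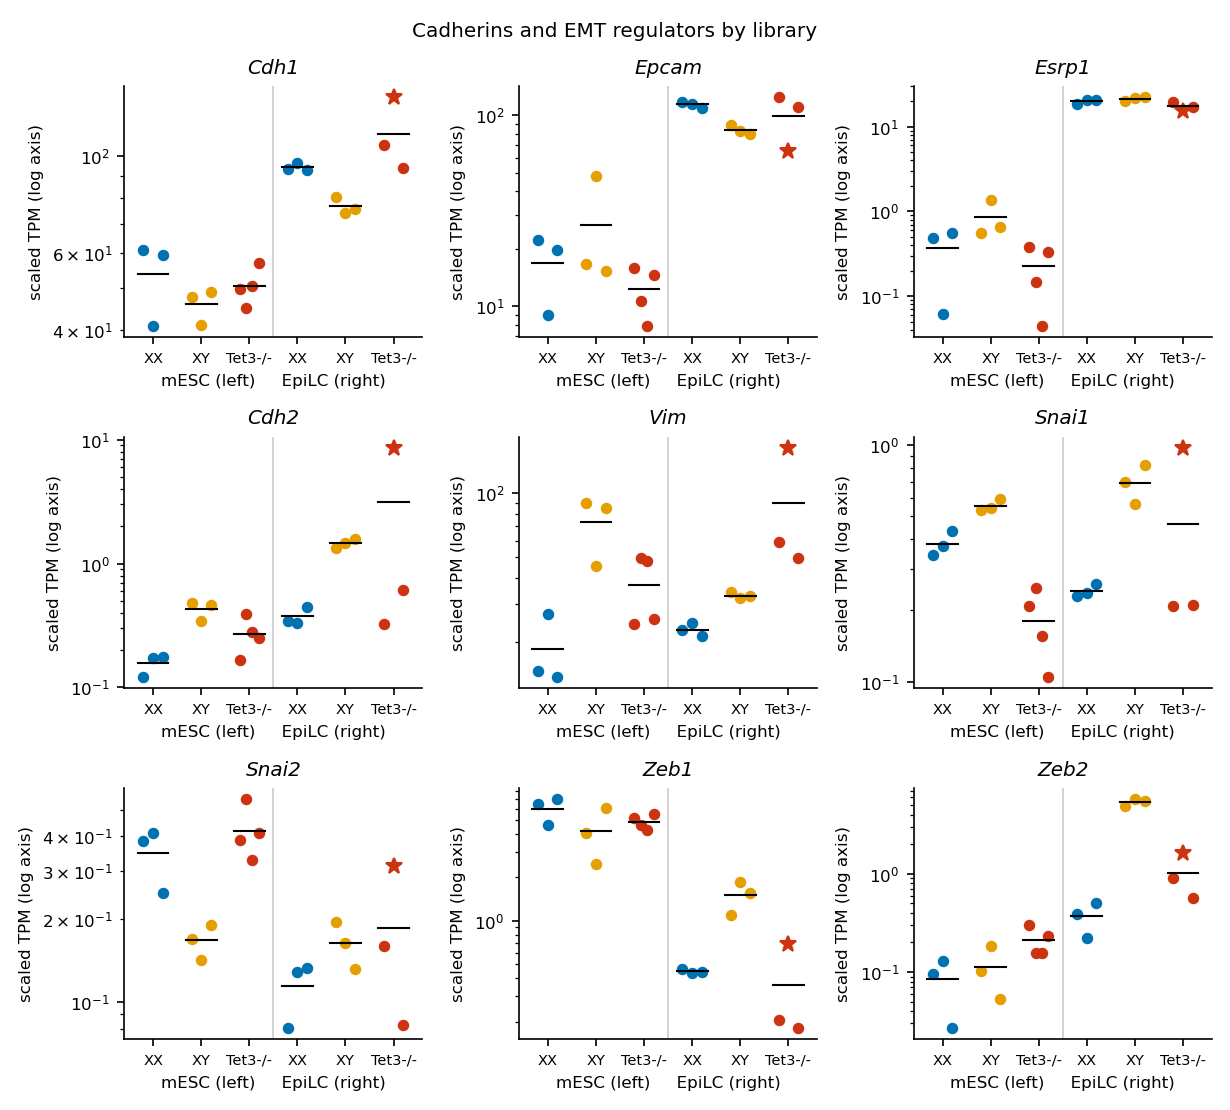
Scaled TPM (log axis) of the 9 genes in each library, with mESC left and EpiLC right of the grey line in every panel. Points are libraries, black lines are group means, and the star is Tet3-/- EpiLC mutant #3, which lies highest in its group for Cdh1, Cdh2, Vim, Snai1, Snai2, Zeb1 and Zeb2 and lowest for Epcam and Esrp1.

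Cdh1 (chr8:106603351-106670246, plus strand, GRCm38) was well expressed in mESC and higher in EpiLC. Its scaled TPM was 61.0, 40.9 and 59.3 in XX mESC replicates 1 to 3 and 93.3, 96.5 and 92.8 in XX EpiLC. It was 47.5, 41.1 and 48.8 in XY mESC and 80.5, 74.2 and 75.6 in XY EpiLC. Tet3-/- mESC #1 to #4 held 49.6, 44.8, 50.3 and 56.8, and EpiLC #1, #3 and #4 held 106, 136 and 94.0. Every EpiLC library lay above every mESC library, and in the XX transition 61.2% and in the XY transition 64.7% of all genes had groups that did not overlap. The log2 fold change was 0.82 ± 0.15 in XX cells (limma adjusted p = 0.000262), 0.74 ± 0.15 in XY cells (adjusted p = 0.000655) and 1.12 ± 0.14 in Tet3-/- cells (adjusted p = 4.75e-06). In ratios of group means Cdh1 rose 1.75-fold, 1.68-fold and 2.22-fold. One transcript, Cdh1-201, carried between 96.2% and 97.7% of the gene's TPM in the 6 groups.

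Epcam (chr17:87635979-87651129, plus strand) encodes an epithelial surface glycoprotein that mediates adhesion without calcium. Its scaled TPM was 22.1, 8.94 and 19.7 in XX mESC and 118, 115 and 109 in XX EpiLC. XY mESC held 16.6, 47.8 and 15.2 and XY EpiLC 89.2, 82.3 and 79.8. In Tet3-/- mESC #1 to #4 it was 15.9, 10.6, 7.90 and 14.6, and EpiLC #1, #3 and #4 held 124, 65.0 and 110. Replicate 2 of the XY mESC was 2.88 times the next library of its group, and mutant #3 was the lowest EpiLC library. Epcam rose by 2.77 ± 0.39 in XX cells (limma adjusted p = 1.78e-05), 1.81 ± 0.39 in XY cells (adjusted p = 0.000915) and 2.92 ± 0.36 in Tet3-/- cells (adjusted p = 4.17e-06), and the ratios of group means were 6.72, 3.16 and 8.13.

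The 250 bases before the RefSeq start of Epcam (GRCm38.p6) are shown. Among members with a window, Epcam's was picked for holding the most matches to letters that Snail and Zeb factors bind. Cdh1, Cdh2, Snai2, Zeb1 and Esrp1 had no window, and a link between Zeb1 and Epcam was not tested. Capitals mark CACCTG and CAGGTG, which are each other's reverse complement, so both strands were searched.
Epcam promoter, chr17:87635729-87635978, plus strand: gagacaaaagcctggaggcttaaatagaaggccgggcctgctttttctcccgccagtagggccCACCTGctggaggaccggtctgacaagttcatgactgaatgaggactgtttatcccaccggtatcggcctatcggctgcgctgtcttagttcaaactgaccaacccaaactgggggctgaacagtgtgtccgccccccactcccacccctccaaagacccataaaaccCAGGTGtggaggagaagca
The window held 1 of each. Of 32851 mouse promoter windows of 250 bases, 17.2% held at least 1 such match and 2.06% at least 2. Among the other members with a window in the same table, Snai1 held 1 match, and Vim and the 4 starts of Zeb2 held 0. A match describes letters and is not a measured binding site.

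Esrp1 (chr4:11331933-11386783, minus strand), an RNA-binding protein of epithelial splicing, went from at most 1.35 to at least 15.2 scaled TPM in all 3 genotypes. It measured 0.483, 0.0614 and 0.558 in XX mESC and 18.7, 20.5 and 20.6 in XX EpiLC. XY mESC held 0.550, 1.35 and 0.657 and XY EpiLC 19.8, 21.9 and 22.1. In mutants #1 to #4 as mESC it was 0.386, 0.148, 0.0450 and 0.329, and EpiLC #1, #3 and #4 held 19.6, 15.2 and 17.1. The lowest EpiLC library was 11.2 times the highest mESC library. The rise was 3.96 ± 0.17 in XX cells (limma adjusted p = 2.37e-11), 3.61 ± 0.17 in XY cells (adjusted p = 4.79e-11) and 3.90 ± 0.16 in Tet3-/- cells (adjusted p = 7.04e-12). Between XX and XY EpiLC the difference was -0.09 (95% interval -0.45 to 0.27), and between Tet3-/- and XX EpiLC it was -0.20 (-0.56 to 0.16), neither of them called. On TPM as deposited, Esrp1 was called lower in XX than in XY EpiLC (-0.80 ± 0.22, limma adjusted p = 0.00874), the setting in which the median gene lay at -0.59. Transcripts Esrp1-204 and Esrp1-203 were the most abundant in all 6 groups, with Esrp1-204 at 48.1% to 52.7% of the gene in the EpiLC.

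Cdh2 (chr18:16588877-16809246, minus strand), the N-cadherin, was at most 1.59 scaled TPM in every library except 1. XX mESC held 0.122, 0.172 and 0.175 and XX EpiLC 0.345, 0.331 and 0.445. XY mESC held 0.477, 0.346 and 0.465 and XY EpiLC 1.34, 1.47 and 1.59. Tet3-/- mESC #1 to #4 held 0.165, 0.391, 0.281 and 0.249, and EpiLC #1, #3 and #4 held 0.322, 8.50 and 0.609. Mutant #3 stood at 18.3 times the mean of the other two Tet3-/- EpiLC libraries. With it, Cdh2 was called in the Tet3-/- transition (1.10 ± 0.43, limma adjusted p = 0.0417) and not in the XX (0.25 ± 0.46, adjusted p = 0.685) or XY transition (0.79 ± 0.46, adjusted p = 0.168). All groups share 1 estimate of the spread, so leaving mutant #3 out also changed the errors of the other comparisons. Without it the call moved to the XX (0.25 ± 0.09, limma adjusted p = 0.0342) and XY transitions (0.79 ± 0.09, adjusted p = 3.72e-06), and the Tet3-/- transition gave 0.20 ± 0.10 (adjusted p = 0.0986). The Tet3-/- call also ended without any 1 of the 4 Tet3-/- mESC libraries (adjusted p from 0.0576 to 0.077) and on TPM as deposited (adjusted p = 0.0828). Without mutant #3, XX EpiLC lay below XY EpiLC (-0.84 ± 0.09, adjusted p = 4.36e-06) and XX mESC below XY mESC (-0.30 ± 0.09, adjusted p = 0.0183). Cdh2 was then in the test only through the XY EpiLC libraries. Its p-values for XX against XY EpiLC and for the XY transition thus follow a selection on high XY EpiLC values.

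Cdh1 thus exceeded Cdh2 in every library. The ratio of Cdh1 to Cdh2 within a library was 237 to 498 in XX mESC, 99.5 to 119 in XY mESC and 114 to 301 in Tet3-/- mESC. It was 209 to 291 in XX EpiLC, 47.5 to 60.1 in XY EpiLC, and 329, 16.0 and 154 in Tet3-/- EpiLC #1, #3 and #4. The XY libraries lay below the XX libraries in both states without overlap, as 37.3% of all single genes did not overlap between XX and XY mESC and 65.0% in EpiLC, and the lowest ratio of all, 16.0, came with a Cdh1 level (136) that was the highest of the 19 libraries.

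Vim (chr2:13573927-13582826, plus strand) was lower in XX than in XY mESC. It measured 14.6, 27.0 and 13.7 in XX mESC and 22.7, 24.6 and 21.2 in XX EpiLC, and these ranges overlap. XY mESC held 90.5, 45.4 and 85.1 and XY EpiLC 34.3, 32.1 and 32.7. Mutants #1 to #4 as mESC held 24.3, 49.8, 48.3 and 25.6, and EpiLC #1, #3 and #4 held 59.3, 163 and 49.4. XX mESC lay below XY mESC by a log2 difference of -1.94 ± 0.40 (limma adjusted p = 0.00147), with XY 3.99 times XX in group means. This was the only one of the 7 tested genes called between XX and XY mESC, where 31.3% of all genes were called (17.7% higher and 13.6% lower in XX). Without XX mESC replicate 2 there were 3 calls, with Cdh1 higher in XX (0.39 ± 0.13, limma adjusted p = 0.0308) and Zeb1 higher in XX (0.63 ± 0.23, adjusted p = 0.0396). The share of all genes called in that fit is not given here. Vim did not pass in the XX transition (0.35 ± 0.40, limma adjusted p = 0.49). In XY cells it fell (-1.07 ± 0.40, adjusted p = 0.034), but was not called on TPM as deposited (-0.41 ± 0.57, adjusted p = 0.566) or without any 1 of the 3 XY EpiLC libraries or XY mESC replicates 1 or 3 (adjusted p from 0.0628 to 0.122). Nor was it called with quantile normalization (-0.87 ± 0.40, limma adjusted p = 0.08), rescaling over protein-coding genes (-0.76 ± 0.46, adjusted p = 0.186) or no filter (adjusted p = 0.0806). It stayed called with only the groups compared (adjusted p = 0.014). In Tet3-/- cells it rose by 1.14 ± 0.37 (limma adjusted p = 0.0171). Without mutant #3 its change was 0.62 ± 0.33 (adjusted p = 0.132), and without mutant #1 as mESC 0.97 (adjusted p = 0.0524). Vim-201 carried 64.5% to 81.7% of the gene's TPM, and the retained-intron model Vim-203 13.1% to 25.3%.

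**Figure D2:**
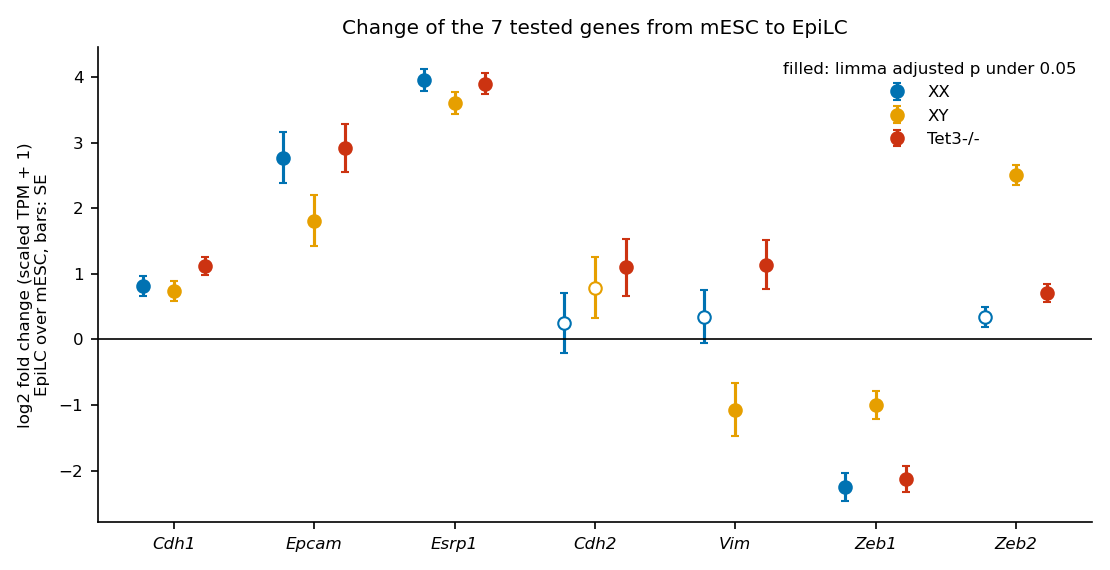
Log2 fold change of the 7 tested genes from mESC to EpiLC in XX, XY and Tet3-/- cells. Points are limma estimates, bars are SE and filled points were called; Cdh1, Epcam and Esrp1 lie above 0 in all 3 genotypes, Zeb1 lies below 0, and Zeb2 reaches 2.51 in XY cells against 0.34 in XX cells.

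Zeb1 (chr18:5591860-5775467, plus strand), a repressor of epithelial genes, was highest in mESC and fell in all 3 genotypes. It measured 6.42, 4.58 and 6.94 in XX mESC and 0.466, 0.437 and 0.441 in XX EpiLC. XY mESC held 4.03, 2.48 and 6.03 and XY EpiLC 1.10, 1.86 and 1.56. Tet3-/- mESC #1 to #4 held 5.13, 4.58, 4.29 and 5.50, and EpiLC #1, #3 and #4 held 0.205, 0.695 and 0.182. No EpiLC library reached the lowest mESC library, and the XY EpiLC lay above all other EpiLC. The log2 change was -2.25 ± 0.21 in XX cells (limma adjusted p = 2.46e-07), between -1.46 and -0.55 in XY cells (95% interval, adjusted p = 0.000939) and -2.13 ± 0.20 in Tet3-/- cells (adjusted p = 1.7e-07). In group means mESC held 13.4, 2.78 and 13.5 times the EpiLC level. The fall was larger in XX than in XY cells, with an XX minus XY change of -1.25 ± 0.30 (limma adjusted p = 0.00646). On TPM as deposited the XY change was -0.58 ± 0.32 (adjusted p = 0.138). The coding transcript Zeb1-201 held 28.1% to 51.3% of the gene's TPM, and non-coding or decay-targeted models held much of the rest.

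Zeb2 (chr2:44983632-45117395, minus strand), the paralogue of Zeb1, rose in XY and Tet3-/- cells. XX mESC held 0.0950, 0.131 and 0.0272 and XX EpiLC 0.389, 0.223 and 0.509. XY mESC held 0.102, 0.182 and 0.0531 and XY EpiLC 4.84, 5.70 and 5.49. Tet3-/- mESC #1 to #4 held 0.304, 0.157, 0.155 and 0.233, and EpiLC #1, #3 and #4 held 0.895, 1.63 and 0.563. XY EpiLC exceeded all other libraries, and the lowest of the 3 was 2.97 times mutant #3, the next highest. Zeb2 rose by 2.51 ± 0.15 in XY cells (limma adjusted p = 6.22e-10) and by 0.71 ± 0.14 in Tet3-/- cells (adjusted p = 0.000365). The XX change was 0.34 ± 0.15 (adjusted p = 0.0671), which passed without mutant #3 (0.34 ± 0.10, adjusted p = 0.0119) or without mutant #4 (0.34 ± 0.12, adjusted p = 0.032) in EpiLC. It also passed with a pseudocount of 0.1 (1.36 ± 0.37, limma adjusted p = 0.00548), with rescaling over protein-coding genes (0.82 ± 0.30, adjusted p = 0.0379) and with only the groups compared (adjusted p = 0.0301). Group means of Zeb2 in EpiLC were 4.43 times those in mESC for XX cells, 4.85 times for Tet3-/- and 47.5 times for XY, and the Tet3-/- and XX changes were not called different (0.37 ± 0.20, limma adjusted p = 0.549). The XX change minus the XY change was -2.17 ± 0.21 (limma adjusted p = 2.21e-06). At most 19.2% of the gene's TPM in XY EpiLC lay in any 1 of its 29 transcripts. An antisense gene, Zeb2os, overlaps Zeb2 and reached at most 0.561 scaled TPM.

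The ratio of Zeb1 to Zeb2 was 35.0 to 255 in XX mESC and 0.867 to 1.96 in XX EpiLC. It was 13.6 to 114 in XY mESC and 0.226 to 0.326 in XY EpiLC. Tet3-/- cells went from 16.9 to 29.1 in mESC to 0.229 to 0.426 in EpiLC, a ratio that overlaps the XY range. The levels did not overlap. Zeb1 was 0.182 to 0.695 in Tet3-/- and 1.10 to 1.86 in XY EpiLC, and Zeb2 was 0.563 to 1.63 and 4.84 to 5.70. The mESC ratios divide by Zeb2 levels of at most 0.304 scaled TPM.

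Snai1 (chr2:167538195-167542814, plus strand) and Snai2 (chr16:14705852-14709385, plus strand), the Snail and Slug repressors, were at or below 0.969 and 0.545 scaled TPM in all 19 libraries. Snai1 was 0.342 to 0.435 in XX mESC, 0.231 to 0.259 in XX EpiLC, 0.530 to 0.593 in XY mESC and 0.562 to 0.822 in XY EpiLC. Tet3-/- mESC held 0.105 to 0.250, and EpiLC #1, #3 and #4 held 0.209, 0.969 and 0.212. Mutant #3 was the highest of all libraries. Snai2 was 0.249 to 0.413 in XX mESC against 0.0806 to 0.133 in XX EpiLC, and 0.327 to 0.545 in Tet3-/- mESC against 0.0824 to 0.313 in EpiLC. XY mESC and EpiLC overlapped, at 0.142 to 0.191 and 0.132 to 0.195. In a fit without the filter on low values, Snai2 was called lower in XX EpiLC than in XX mESC (-0.27 ± 0.09, limma adjusted p = 0.0322) and in Tet3-/- EpiLC than in Tet3-/- mESC (-0.26 ± 0.08, adjusted p = 0.028), and Snai1 in none of the 9 comparisons.

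Between Tet3-/- and XX cells in mESC 0 of 7 were called by limma, and 3.19% of all genes were (1.77% higher and 1.42% lower). The largest difference was that of Vim (0.95 ± 0.37, adjusted p = 0.217, 95% interval 0.16 to 1.74), the 1 gene at an unadjusted p under 0.05, and 0 of 7 were called under each alternative processing. Zeb2 was not called in mESC (0.16 ± 0.14, limma adjusted p = 0.682). Its mESC groups still did not overlap, at 0.155 to 0.304 in Tet3-/- and 0.0272 to 0.131 in XX, as for 12.4% of all genes. In EpiLC Vim (1.74 ± 0.40, limma adjusted p = 0.017) and Zeb2 (0.53 ± 0.15, adjusted p = 0.0437) were called higher in the mutants, 2 of 7 beside 5.46% of all genes (2.50% higher and 2.96% lower). All 3 mutants lay above the 3 XX libraries for both genes, at 49.4 to 163 against 21.2 to 24.6 for Vim and 0.563 to 1.63 against 0.223 to 0.509 for Zeb2, and 29.0% of all genes had groups that did not overlap in this comparison. Neither call held without mutant #3 (Vim 1.21 ± 0.35, limma adjusted p = 0.063, and Zeb2 0.33 ± 0.11, adjusted p = 0.128). Leaving out any 1 XX EpiLC library also ended both, with adjusted p of 0.0534 to 0.0719 for Vim and 0.0723 to 0.195 for Zeb2. Of the 19 libraries left out singly, Zeb2 kept its call only without Tet3-/- EpiLC #4, XX mESC replicate 2 or XY mESC replicate 2. On TPM as deposited neither was called (Vim limma adjusted p = 0.26, Zeb2 adjusted p = 0.423). Cdh2 was not called (0.99 ± 0.46, limma adjusted p = 0.253, 95% interval 0.01 to 1.97), its groups overlapped, and with Vim and Zeb2 it was 1 of 3 genes at an unadjusted p under 0.05. The intervals of other genes not called ran from -0.09 to 0.55 for Cdh1, from -1.06 to 0.58 for Epcam and from -0.56 to 0.34 for Zeb1.

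Mutant #3 stood apart from mutants #1 and #4 in EpiLC across the set. Relative to the mean of those 2 libraries it held 2.99 times the Vim, 4.59 times the Snai1, 3.59 times the Zeb1, 2.24 times the Zeb2 and 1.36 times the Cdh1, but 0.556 times the Epcam and 0.830 times the Esrp1. The mesoderm markers T, Mesp1, Mixl1, Eomes and Tbx6 summed to 93.4 scaled TPM in it against 4.62 and 5.37 in mutants #1 and #4, and 3 of the 5 reached 1 scaled TPM. T (brachyury), a primitive-streak factor, was 70.3 in mutant #3, 1.36 in #1 and 1.28 in #4. Among the EpiLC markers, Fgf5 was 32.6 against 4.75 and 5.45 and Pou3f1 13.5 against 4.02 and 5.18. Dnmt3b was 46.6 against 25.9 and 32.9, while Otx2 was lower in mutant #3, at 16.6 against 21.3 and 19.1. The extraembryonic endoderm list summed to 11.0 against 6.28 and 4.28, and its members did not move together. Foxa2 was 3.93 against 0.0777 and 0.0390, Sox17 2.51 against 0 and 0.142, and Gata6 1.56 against 0.114 and 0.122. Sox7 was 0.188 against 0.0179 and 0.0461. Dab2 was lower in mutant #3, at 1.90 against 5.30 and 3.09, and Gata4 was similar, at 0.877 against 0.774 and 0.840. The neural list summed to 60.4 against 36.1 and 42.1, and the fibroblast list to 2.62 against 3.92 and 3.85. Nes alone was 54.3, 33.7 and 37.8 of the neural sums in #3, #1 and #4. In XX cells Nes averaged 0.854 in mESC and 22.8 in EpiLC. In the XY EpiLC, which had the next highest Cdh2, the mesoderm sum was 15.7 to 19.2, and in the XX EpiLC 3.70 to 3.99. The part of these cell-type markers in the levels of Cdh2, Vim and Snai1 was not tested.

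**Figure D3:**
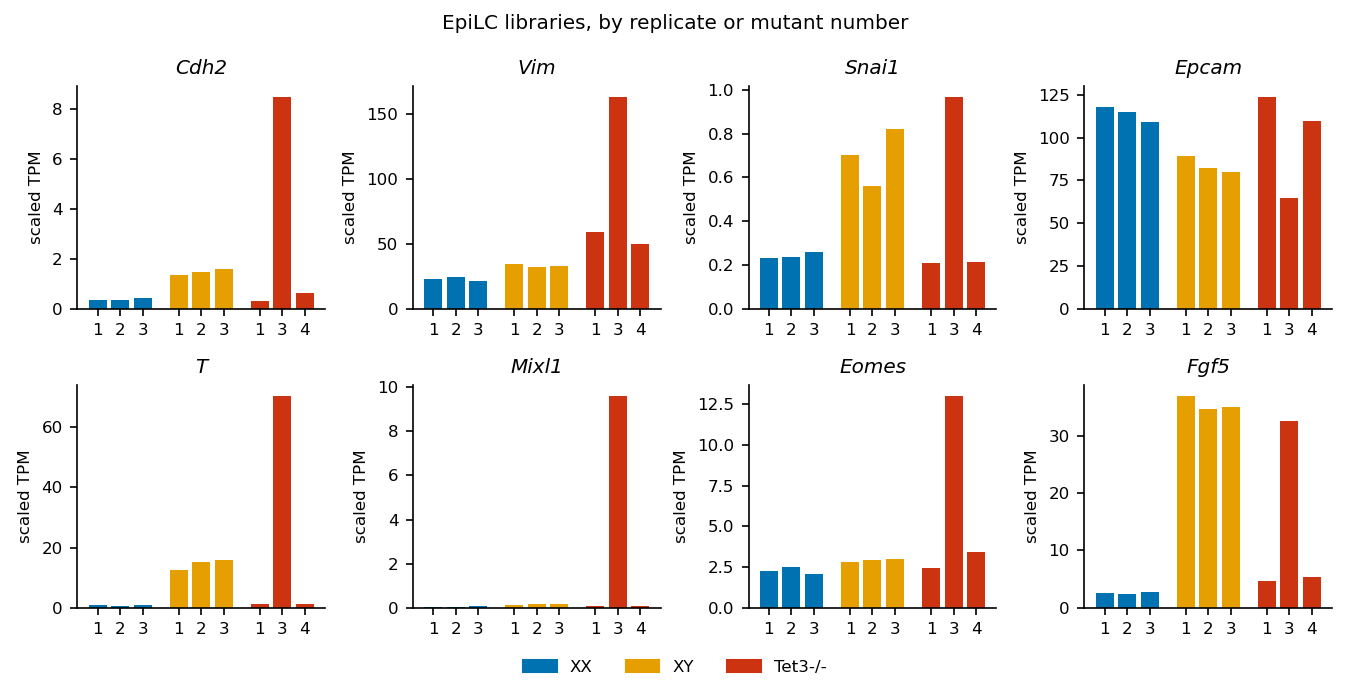
Scaled TPM of Cdh2, Vim, Snai1, Epcam and 4 marker genes in the 9 EpiLC libraries, with 1 bar per library and axes from 0. Mutant #3 has the tallest bar for Cdh2 (8.50), Vim (163), Snai1 (0.969), T (70.3), Mixl1 and Eomes and the shortest for Epcam (65.0), while Fgf5 is 34.6 to 36.9 in the XY libraries and 32.6 in mutant #3.

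Several of the genes differed together in single mESC libraries. XX mESC replicate 2 had the lowest Epcam, Esrp1, Cdh1 and Zeb1 and the highest Vim of its group. XY mESC replicate 2 had the highest Epcam and Esrp1 and the lowest Vim, Zeb1 and Cdh1. Mutants #2 and #3 had lower Epcam and Esrp1 and higher Vim than mutants #1 and #4. Within-library ratios of Epcam to Vim were 0.331 in XX mESC replicate 2 against 1.51 and 1.44, and 1.05 in XY mESC replicate 2 against 0.184 and 0.179. Markers of other cell types differed in the same libraries. The 6 extraembryonic endoderm markers summed to 1.30 scaled TPM in XX mESC replicate 2 against 8.89 and 9.93 in the other two, and to 0.872 and 1.05 in mutants #2 and #3 against 4.29 and 3.86 in #1 and #4. XY mESC replicate 2 had a mesoderm sum of 12.3 against 7.83 and 8.56, a trophoblast sum of 8.65 against 3.15 and 2.89, and a neural sum of 2.42 against 11.6 and 10.0. A single gene made most of each of these differences. T was 10.3 against 5.00 and 5.66, Cdx2 7.99 against 2.98 and 2.82, and Tubb3 0.754 against 9.41 and 7.59. The trophoblast markers Krt7, Elf5 and Hand1 were 0.589, 0.0498 and 0.0202 in replicate 2. The part of all these markers in the levels of Epcam, Esrp1, Vim and Zeb1 was not tested.

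Between XX and XY EpiLC, Zeb1 (-0.78 ± 0.21, limma adjusted p = 0.00996) and Zeb2 (-2.21 ± 0.15, adjusted p = 1.44e-08) were lower in XX, 2 of 7 beside 33.8% of all genes (17.2% higher and 16.6% lower). In group means XY held 3.36 times the Zeb1 and 14.3 times the Zeb2 of XX. The 3 XX libraries lay apart from the 3 XY libraries also for Cdh1 (0.29 ± 0.15, limma adjusted p = 0.15), Epcam (0.44 ± 0.39, adjusted p = 0.416), Cdh2 (-0.84 ± 0.46, adjusted p = 0.175) and Vim (-0.52 ± 0.40, adjusted p = 0.348), of which the test called none, and 65.0% of all genes had groups that did not overlap. A fit on these 6 libraries alone called all 4 of them with the same signs, at limma adjusted p from 0.00011 to 0.00249. That fit also called more of all genes than the 33.8% of the main fit. The signs for Cdh1 and Epcam depended on the scaling: on TPM as deposited they were -0.44 ± 0.33 (adjusted p = 0.268) and -0.29 ± 0.29 (adjusted p = 0.401). For the XX change minus the XY change 2 of 7 were called, Zeb1 and Zeb2, beside 23.7% of all genes (10.9% higher and 12.8% lower). Without mutant #3 this became 4 of 7, with Cdh2 (-0.54 ± 0.13, limma adjusted p = 0.00622) and Vim (1.42 ± 0.44, adjusted p = 0.0251) added. The share of all genes called in that fit is not given here. Cdh2 was then in the test only through the XY EpiLC, in which it was high.

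The neighbours of these genes in the pathway give the context. Of 20 genes of the epithelial surface and its junctions, 20 were tested, and in the XX transition 19 rose and 1 fell, with a median log2 change of 1.81 against -0.02 for all genes. In XY cells 12 rose, 1 fell and 7 were not called (median 1.09), and in Tet3-/- cells 19 rose and 1 was not called (median 1.83). Of all tested genes 24.5% were called higher and 25.9% lower in the XX transition. The shares were 26.4% and 25.0% in XY and 25.2% and 27.2% in Tet3-/- cells. They also stand beside the transition counts of the lists that follow. Crb3, an apical polarity protein, rose by 3.49 ± 0.44 in XX, 1.88 ± 0.44 in XY and 3.83 ± 0.41 in Tet3-/- cells (limma adjusted p = 5.71e-06, 0.00183 and 7.48e-07). Dsg2, a desmosomal cadherin, was the 1 gene that fell in XX cells (-0.65 ± 0.13, adjusted p = 0.000619).

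Other cadherins and adherens-junction partners were tested for 12 of 16 listed genes. In the XX transition 9 rose and 1 fell (median 0.81), in the XY transition 4 and 1 (median 0.12), and in the Tet3-/- transition 8 and 1 (median 0.85). The XY count of 4 of 12 was near the 26.4% of all genes called higher in that transition. P-cadherin (Cdh3) went from 0.940 ± 0.530 to 9.33 ± 0.564 scaled TPM in XX cells (2.45 ± 0.28, limma adjusted p = 2.29e-06), and from 2.53 ± 0.716 to 3.38 ± 0.265 in XY cells (0.33 ± 0.28, adjusted p = 0.354). Its transitions differed between XX and XY by 2.12 ± 0.40 (limma adjusted p = 0.00106). The adhesion receptor Nectin2 rose by 1.86 ± 0.15, 1.43 ± 0.15 and 1.88 ± 0.14 in XX, XY and Tet3-/- cells (adjusted p = 3.47e-08, 6.77e-07 and 1.06e-08).

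The mesenchymal list also rose. Of 16 tested among 20 listed, 13 rose and 1 fell in XX cells (median 1.78), 9 and 3 in XY cells (median 1.30), and 13 and 0 in Tet3-/- cells (median 2.14). Among them were Tpm1 and Tpm2, which code for actin-binding tropomyosins, with changes of 3.55 ± 0.22 and 3.47 ± 0.24 in XX cells (limma adjusted p = 1.45e-09 and 4.82e-09). Tgfbi, a secreted matrix protein induced by TGF-beta, fell in XX cells (-2.62 ± 0.52, adjusted p = 0.000559), from 0.949, 13.8 and 13.8 scaled TPM to at most 0.297, so that replicate 2 of the XX mESC stood apart. The other EMT transcription factors were tested for 5 of 9 genes, with 3 higher and 2 lower in XX, 2 and 1 in XY, and 2 and 2 in Tet3-/- cells. Snai3 rose from 0.184 ± 0.0645 to 5.77 ± 0.509 scaled TPM in XX cells (2.51 ± 0.09, limma adjusted p = 5.17e-12), Tcf4 rose (0.63 ± 0.21, adjusted p = 0.0179) and Klf8 fell (-1.70 ± 0.19, adjusted p = 2.06e-06).

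**Figure D4:**
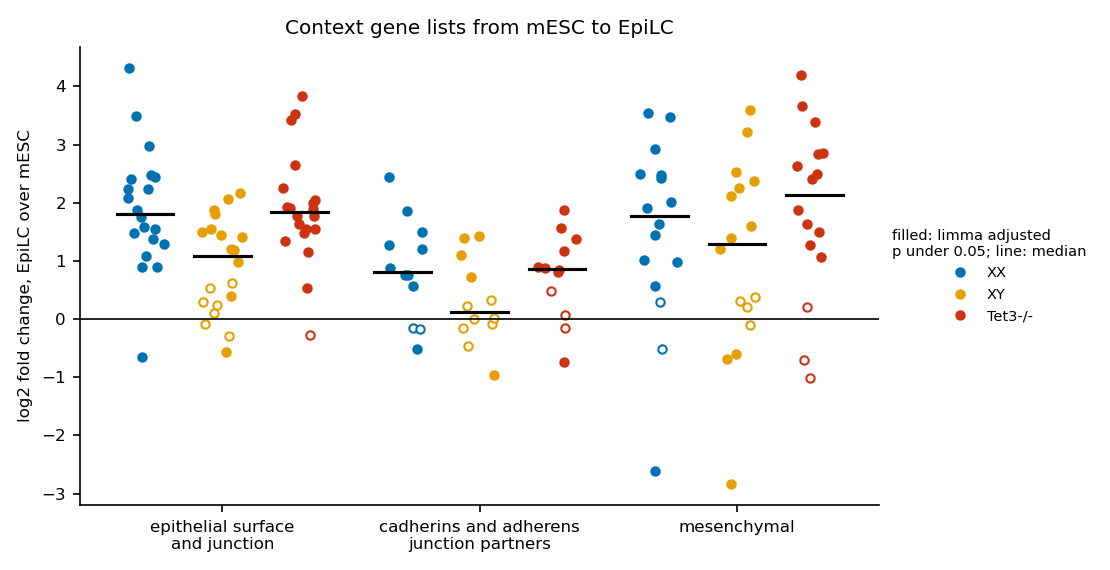
Log2 fold change from mESC to EpiLC of each tested gene of 3 lists in XX, XY and Tet3-/- cells. Points are genes, filled where called, and black lines are list medians; the medians of the epithelial list are 1.81, 1.09 and 1.83 and those of the mesenchymal list 1.78, 1.30 and 2.14.

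Epithelial transcription and splicing regulators were tested for 6 of 8 listed genes and moved both ways, with 2 higher and 2 lower in XX, 2 and 4 in XY, and 2 and 2 in Tet3-/- cells. Esrp2, the paralogue of Esrp1, rose from 2.49 ± 0.0996 to 9.87 ± 0.727 scaled TPM in XX cells and from 2.19 ± 0.159 to 2.99 ± 0.490 in XY cells, where the change was small (0.31 ± 0.11, limma adjusted p = 0.0223). The epithelial factors Grhl3 (-1.15 ± 0.19, adjusted p = 0.000118) and Elf3 (-1.12 ± 0.19, adjusted p = 0.000136) fell in XX cells. XX EpiLC exceeded XY EpiLC for 5 of the 6 regulators and for 12 of the 20 epithelial surface genes, with 0 lower in both lists. Of the mesenchymal genes 11 of 16 were higher in XX EpiLC and 1 lower. Beside these, 17.2% of all genes were called higher and 16.6% lower. On TPM as deposited the list counts were 3 higher and 0 lower, 4 and 2, and 4 and 1. In that setting 783 of all genes were called higher and 6291 lower. Between Tet3-/- and XX EpiLC, 0 of 12 adherens genes were called, beside 5.46% of all genes. Of the other EMT factors 1, Snai3, was called higher (0.34 ± 0.09, limma adjusted p = 0.0431), and this count became 0 on TPM as deposited, with rescaling over protein-coding genes and without mutant #3. Of the regulators 1, Klf5, named here after its values were seen, was called lower, and this count became 0 on TPM as deposited.

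Esrp1 and Esrp2 are known to favour the IIIb exon of Fgfr2 over the IIIc exon, a pair that sets the ligands the receptor binds. Transcripts of Fgfr2 were sorted by which of the 2 exons the annotation gives them. In mESC, transcripts with IIIb were at most 0.246 TPM as deposited. Their share of the IIIb and IIIc transcripts was 0% to 1.70% in XX mESC and 4.14% to 20.0% in Tet3-/- mESC, and XY mESC held at most 0.0805 TPM of IIIc, too little to read a share. In EpiLC the IIIb share was 74.5%, 59.2% and 67.4% in XX, 25.1%, 14.5% and 25.6% in XY, and 43.6%, 31.3% and 46.3% in Tet3-/- #1, #3 and #4. These 3 ranges did not overlap. Esrp1 was not called between XX and XY EpiLC or between Tet3-/- and XX EpiLC on scaled TPM, was called between XX and XY EpiLC on TPM as deposited, and was not tested between Tet3-/- and XY EpiLC. Esrp2 was 9.10 to 10.5 scaled TPM in XX EpiLC, 2.47 to 3.44 in XY EpiLC and 8.61 to 10.4 in Tet3-/- EpiLC. The shares are estimates from few TPM, at most 3.70 for IIIb, the sorted transcripts held 16.1% to 62.2% of the gene's TPM, and no test was made.

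**Figure D5:**
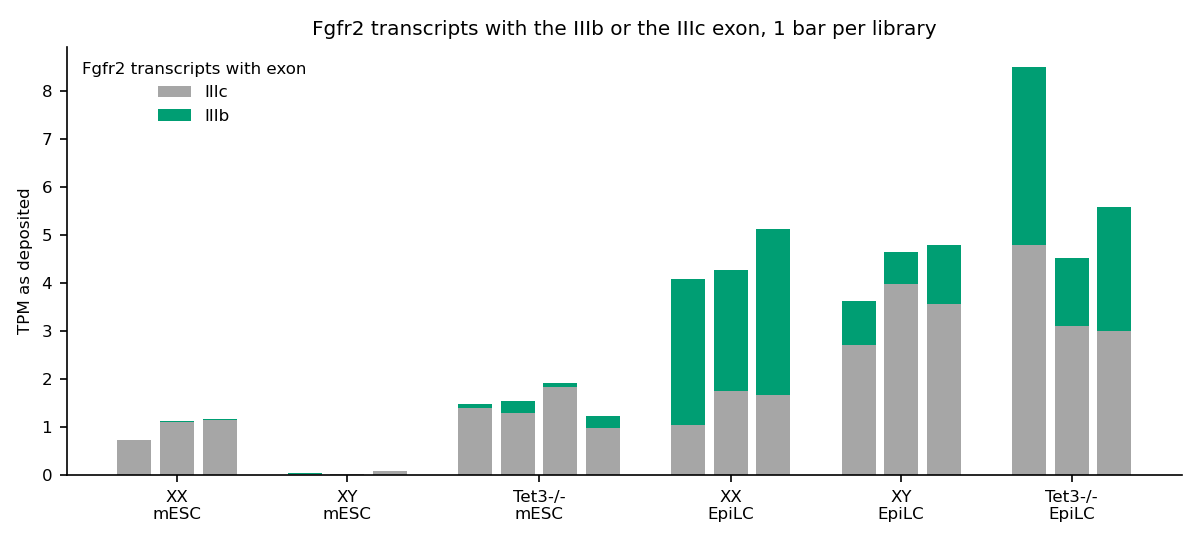
TPM as deposited of Fgfr2 transcripts with the IIIb exon (green) stacked on those with the IIIc exon (grey), 1 bar per library in 6 groups, axis from 0. IIIb is near 0 in mESC and makes up 59.2% to 74.5% of the bar in XX EpiLC, 14.5% to 25.6% in XY EpiLC and 31.3% to 46.3% in Tet3-/- EpiLC.

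Across the 19 libraries, which share 6 groups and are not independent points, Epcam and Esrp1 followed each other (Pearson r = 0.96 on the log2 scale), and Zeb1 ran against Epcam and Esrp1 (r = -0.91 for both). Cdh2 and Zeb2 had r = 0.61 over 19 libraries and 0.93 over the 18 without mutant #3. Both reached 1 TPM only in the XY EpiLC and mutant #3, so the second r sets the XY EpiLC against libraries with low values. Among 8992 protein-coding genes with a group mean of at least 5 scaled TPM, the profiles most like that of Epcam were Crb3, Ocln and Cldn6 (r = 0.99, 0.98 and 0.98), and like that of Cdh1 Dusp4, Wnt3 and Dpysl5 (0.97, 0.96 and 0.96). Esrp1 was nearest to Fkbp10, Kif1a and Galnt3 (0.99 each), Zeb1 to Aff1, Rpap1 and Vps54 (0.98, 0.96 and 0.96), and Zeb2 to Ptn, Prtg and Car14 (0.99, 0.98 and 0.97). Vim was nearest to Gas2l1, Men1 and Nudt1 (0.94, 0.89 and 0.87), and Cdh2 to Cyp26a1, Rtl8a and Rtl8b (0.94, 0.91 and 0.91).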

How the data were processed

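RNA from 19 libraries (total RNA without ribosomal RNA, stranded kit, per the labels' protocols) was analysed from 1 deposited table of TPM for 140948 transcripts. The authors made the TPM values with Salmon 1.1.0 after Trimmomatic 0.35 and FastQC 0.11.7 on GRCm38, as far as the submitters' processing notes name tools and a build, with no role or order. The annotation and the strand setting are not given in the sources used here. Each column summed to 1000000, so depth is unknown and is replaced by the spread between libraries.

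Transcripts were summed per gene with GENCODE M21. Of them 1096 did not match and held at most 0.215% of TPM. TPM was divided by a median-of-ratios size factor per library (0.599 to 1.715), and limma 3.58.1 (R 4.3.3, lmFit, contrasts.fit, eBayes with a trend) was fitted to log2(scaled TPM + 1) of all 19 libraries in 6 groups with 9 contrasts. P-values were adjusted by Benjamini-Hochberg over 14972 genes. The fit was tested on simulated data. Intervals are 95% limma intervals.

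The members, lists and tests were chosen with earlier results of these data known. All 9 members were named. From each list the 2 highest and 2 lowest called changes of the XX transition with a group mean of at least 5 scaled TPM were named, and for profiles the 3 genes with the highest r. Some results under this rule are not reported here. Promoter windows came from RefSeq (GRCm38.p6), and 4 of 9 members matched. Alternatives were TPM as deposited, quantile normalization, rescaling over nuclear protein-coding genes, a pseudocount of 0.1, no filter, a filter of 5 TPM, eBayes with no trend, fits on the compared groups alone, a replicate block, and each library left out.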

Additional observations from a re-analysis of the deposited data

Results flagged for a closer look

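The change of Zeb2 from mESC to EpiLC differed between XX and XY cells, by -2.17 on the log2 scale (SE 0.21, limma adjusted p = 2.21e-06). All 3 XY EpiLC libraries (4.84 to 5.70 scaled TPM) lay above all 3 XX EpiLC libraries (0.223 to 0.509). Zeb2 passed the filter of 1 TPM in 3 libraries only through the XY EpiLC and Tet3-/- EpiLC mutant #3, so its p-value follows a selection on high XY EpiLC values. The change of Zeb1 also differed, by -1.25 (SE 0.30, limma adjusted p = 0.00646), with XX EpiLC at 0.437 to 0.466 scaled TPM and XY EpiLC at 1.10 to 1.86. Sex and cell line cannot be told apart here.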

How the results depend on the processing

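Of 63 values for the 7 tested genes over 9 comparisons, 24 were called and 18 of these stayed called under every alternative that was run; none of the called values changed sign. Of 1755 values under the alternatives, 60 lost and 30 gained a call, and 30 values called in neither setting changed sign. The losses lay in Cdh2 and Vim in the Tet3-/- transition, Vim and Zeb1 in the XY transition, and Vim and Zeb2 between Tet3-/- and XX EpiLC; beyond the smaller sample or changed scale that the alternative itself brings, the cause was not tested.

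Between Tet3-/- and XX EpiLC the 2 called members became 0 on TPM as deposited, 0 with rescaling over protein-coding genes, 0 with only the groups compared, and 1 each with a pseudocount of 0.1, no filter, a filter of 5 TPM and the replicate block. Between XX and XY mESC 1 member became 2 with quantile normalization and 2 with only the groups compared; in EpiLC 2 became 6, and for the difference of the XX and XY transitions 2 became 4, with only the groups compared. Leaving out 1 library gave 4 to 6 members in the XX, 5 to 7 in the XY and 5 to 7 in the Tet3-/- transition, 0 to 2 between Tet3-/- and XX EpiLC, 1 to 3 between XX and XY mESC, 2 to 3 in EpiLC, 2 to 4 for XX minus XY, and 0 throughout for Tet3-/- against XX mESC and for the difference of their transitions.

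Over all genes, TPM as deposited gave 4689 calls against 7542 in the XX transition, 90 against 477 (Tet3-/- against XX mESC), 161 against 817 (the same in EpiLC), 2121 against 4679 (XX against XY mESC) and 26 against 99 (Tet3-/- minus XX transition). Rescaling gave 155 in place of 477, and a pseudocount of 0.1 gave 62 in place of 99. A filter of 5 TPM gave 4999 in the XX transition, 51 in place of 99 and 2187 in place of 3548 (XX minus XY transition). Only the groups compared gave 8, 405, 2326, 50 and, for XX against XY EpiLC, 8645 in place of 5066. Leaving out 1 library gave 6520 to 8079 in the XX, 6540 to 8281 in the XY and 7014 to 8348 in the Tet3-/- transition, 188 to 1594 between Tet3-/- and XX mESC (highest without XX mESC replicate 2, lowest without replicate 1), 366 to 1158 in EpiLC (lowest without XX EpiLC replicate 3, highest without XX mESC replicate 2), 3383 to 6021 and 3902 to 5826 between XX and XY in mESC and EpiLC, 53 to 361 for Tet3-/- minus XX and 2825 to 4609 for XX minus XY.

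Calls split into higher and lower differently on TPM as deposited: 2868 and 1821 against 3668 and 3874 in the XX transition, 6159 and 1402 against 3947 and 3742 in the XY transition, 74 and 16 against 265 and 212 between Tet3-/- and XX mESC, 18 and 143 against 374 and 443 in EpiLC, 963 and 1158 against 2644 and 2035 between XX and XY mESC, 783 and 6291 against 2581 and 2485 in EpiLC, 0 and 26 against 37 and 62 for Tet3-/- minus XX, and 540 and 1857 against 1632 and 1916 for XX minus XY.

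Same-numbered libraries did not deviate together in every pair. The correlation of their deviations was over 0.1 for every pair in none of the 7 comparisons, ranging from -0.44 to 0.48. In each transition the same number was the best match in 2 of 3 pairs. For the Tet3-/- mutants, numbered alike in mESC and EpiLC, it was 0.22 for #1, 0.22 for #3 and -0.09 for #4. So few pairs cannot show that pairing is absent. The main fit did not take the numbers as pairs, and a replicate block was an alternative. With a replicate block the Tet3-/- minus XX transition gave 14 calls in place of 99, and the XX, XY and Tet3-/- transitions gave 7323, 7500 and 7262. Depth is unknown, so no limit of detection could be given.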
